A study of Mus musculus with 4 samples.

Results

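The genes described here build the protein secretion machinery of the endoplasmic reticulum (ER). Their 51 members, among 24537 genes in the tables, were matched by gene symbol. The list of symbols was chosen with earlier results of these data known. It comprised 11 folding chaperones and co-chaperones, 4 protein disulfide isomerases, 3 sensors and transcription factors of the unfolded protein response (UPR), 7 genes of ER-associated degradation (ERAD), 9 of the translocon, 5 of signal peptidase, 7 of the signal recognition particle (SRP) and its receptor and 5 of the oligosaccharyltransferase (OST). Secreted and membrane proteins are led to the ER by SRP, threaded through the Sec61 channel, freed of their signal peptide, given N-linked glycans and folded with the help of chaperones. When unfolded chains build up, the sensors IRE1, ATF6 and PERK raise the transcription of chaperone and ERAD genes, IRE1 by splicing the mRNA of *Xbp1*. Cells that secrete heavily, such as plasma cells, enlarge this machinery, and group 2 innate lymphoid cells (ILC2s) are known for releasing IL-5 and IL-13.

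ILC2s were compared between acute IL-33 and chronic house dust mite (HDM) inflammation, with 2 libraries each. IL-33 was given into the airways at 0.5 µg a dose for 3 doses, every other day. HDM was given intranasally at 25 µg a dose, 3 times a week for 5 weeks. The mice were on a C57BL/6 background and about 8 to 16 weeks old at analysis. All mice carried a YFP reporter behind *Gata3* (GATIR), and Lineage-Sca-1+YFP+ cells were sorted from bronchoalveolar lavage (BAL) fluid 1 day after the last dose. The labels give the IL-33 mice as Gata3-YFP/YFP with CD25High cells and the HDM mice as Gata3-YFP/WT with CD25Low cells, whereas the methods describe homozygous mice and no CD25 gate. Reporter genotype and CD25 gate therefore cannot be told apart from the stimulus in these labels, and the number of mice behind a library is not given in the sources used here. No library without stimulation was analysed here, so a gene higher after IL-33 may equally be lower after HDM.

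The values were reads per kilobase of exon, scaled to the mapped reads of the library (RPKM), with 10696041 to 16092268 reads in genes per library. The libraries were unlike in composition, since 45S ribosomal RNA took 3.45 and 4.95% of these reads after IL-33 and 17.4 and 25.4% after HDM. The HDM pair also spread more widely, with 53.2% of all tested genes differing by over 1.5-fold between its libraries against 18.8% between the IL-33 libraries. Among the tested members these shares were 36% (18 of 50) and 8% (4 of 50). All 14 ILC2 markers passed the minimum level, among them *Gata3*, *Il7r*, *Icos* and *Klrg1*. *Il2ra*, which encodes CD25, read 432 and 376 RPKM after IL-33 and 27.6 and 22.0 after HDM, and *Gata3* itself 14.9 and 18.9 against 216 and 195. Of the plasma cell markers *Jchain* and *Mzb1* were listed at 0 in every library, and *Tnfrsf17* reached at most 0.067 RPKM. The summed level of the 5 measured was 12.6 and 16.1 RPKM in the IL-33 pair and 7.29 and 12.45 in the HDM pair. It came from *Prdm1*, at 11.7 and 15.9 against 2.83 and 9.64 RPKM, and *Sdc1*, which lay the other way at 0.901 and 0.196 against 4.45 and 2.75. The B cell markers *Ms4a1* and *Pax5* were at 0 in all libraries, while *Cd79b* read 38.4 and 27.4 RPKM in the IL-33 libraries against 8.74 and 6.67. Of 16 macrophage markers 6 were higher in both HDM libraries, against 23.5% of all tested genes, and none in both IL-33 libraries. Their summed level was 1319 and 315 RPKM in the IL-33 pair against 3166 and 9365. Most of it was *Chil3*, at 1155 and 261 against 2144 and 6162 RPKM. Others, such as *Cd68*, *Fabp4* and *Spp1*, overlapped between the groups. The basophil and mast cell genes, mostly *Mcpt8*, summed to 52.3 and 44.6 RPKM in the IL-33 pair against 0 and 2.87. Scaling without 45S ribosomal RNA lowered the median log2 fold change of the members from 1.11 to 0.88. These cells were not tested for their part in the member values, and in such bulk libraries fewer cells of a type and less RNA per cell cannot be told apart.

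ER secretion genes took a larger share of the transcriptome after IL-33 than after chronic HDM. They held 2.2 and 2.07% of the reads in genes in the IL-33 libraries and 0.899 and 0.895% in the HDM libraries, a 2.38-fold ratio of means. With 45S ribosomal RNA left out of the total the shares were 2.31 and 2.15% against 1.09 and 1.2%, a 1.95-fold ratio. The groups did not overlap on either scale, and the exact two-sided permutation test gave its smallest possible p for 2 libraries a group, 0.333.

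Gene by gene, 50 members passed the minimum mean of 2 RPKM, together with 9523 genes in all. *Derl3*, a paralogue of the degradation factors Derlin-1 and Derlin-2, was left out, with 0.46 and 0.193 RPKM in the IL-33 libraries and 0 and 2.95 in the HDM libraries. With limma on log2(RPKM + 1), 7 members (14% of the 50) rose after IL-33 relative to HDM (a log2 fold change over 1 with an adjusted p under 0.01), against 2.8% of all tested genes. Their genes span, introns included and on mm10, chr2:34772090-34776529 (*Hspa5*), chr6:88084473-88105304 (*Rpn1*), chr6:88503607-88518800 (*Sec61a1*), chr16:17130138-17132383 (*Sdf2l1*), chr2:157279098-157326318 (*Rpn2*), chr3:88579671-88588413 (*Ssr2*) and chr11:120560304-120572936 (*P4hb*). None of the members was called higher after HDM, where the background was 0.536%, and none had an unadjusted p under 0.05 in that direction (11.2% of all genes did). Limma-voom called no gene of the table in either direction, so its 0 for any group tells nothing about that group. An unadjusted p under 0.05 in the IL-33 direction was found for 33 of the 50, against 25.5% of all genes, and counts at that level below are to be read against this share. At the looser adjusted p of 0.05, 25 members (50%) were higher after IL-33, against 13.8% of all genes. Both IL-33 libraries lay above both HDM libraries for 37 of the 50 (74%), against 41.7% of all genes, and both HDM libraries lay above for 2, *Ern1* and *Edem1*, against 23.5%. Group counts below of genes at an adjusted p of 0.05 or without overlap are likewise to be read against 13.8% and 41.7%. The median log2 fold change of the members was 1.11 and that of all tested genes 0.28, so the typical gene was itself somewhat higher in the IL-33 libraries on the RPKM scale. Scalings that bring the all-gene median to between 0.03 and 0.08 left a member median of 0.62 to 0.88 and 1 call, *Hspa5*. The number of calls also depended on which single library was left out, for the members and for all genes alike. With each library left out in turn the member median was 0.99 to 1.15, against 0.23 to 0.31 for all genes. With the replicate number as a block 24 members were called, and 987 of all 9523 genes were called higher after IL-33, although the numbers do not pair these libraries.

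**Figure D1:**
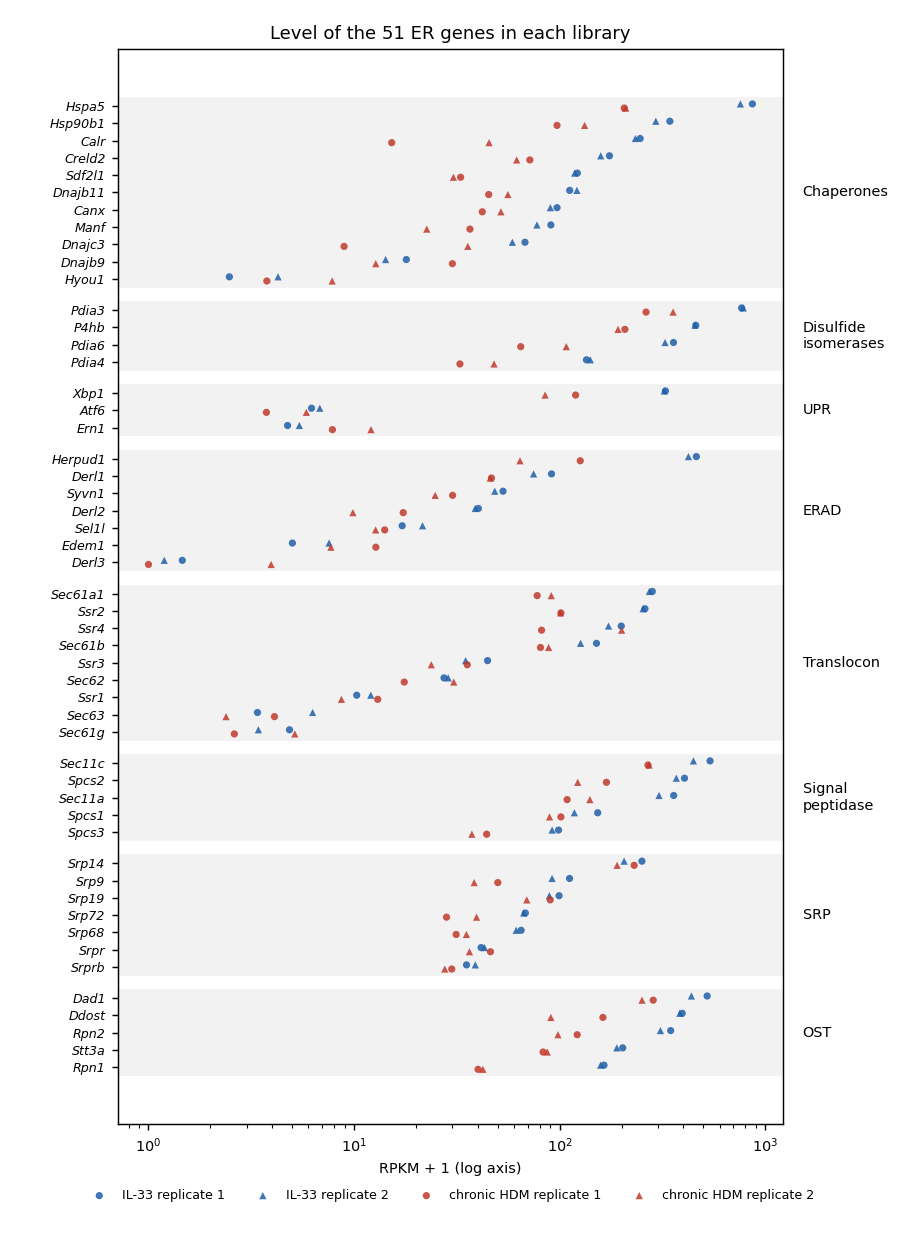
RPKM + 1 of all 51 members in each of the 4 libraries on a log axis, by functional group (UPR, unfolded protein response; ERAD, ER-associated degradation; SRP, signal recognition particle; OST, oligosaccharyltransferase), with blue for IL-33, red for chronic HDM, circles for replicate 1 and triangles for replicate 2. For 37 of the 50 tested members both blue points lie to the right of both red points, against 41.7% of all tested genes.

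**Figure D2:**
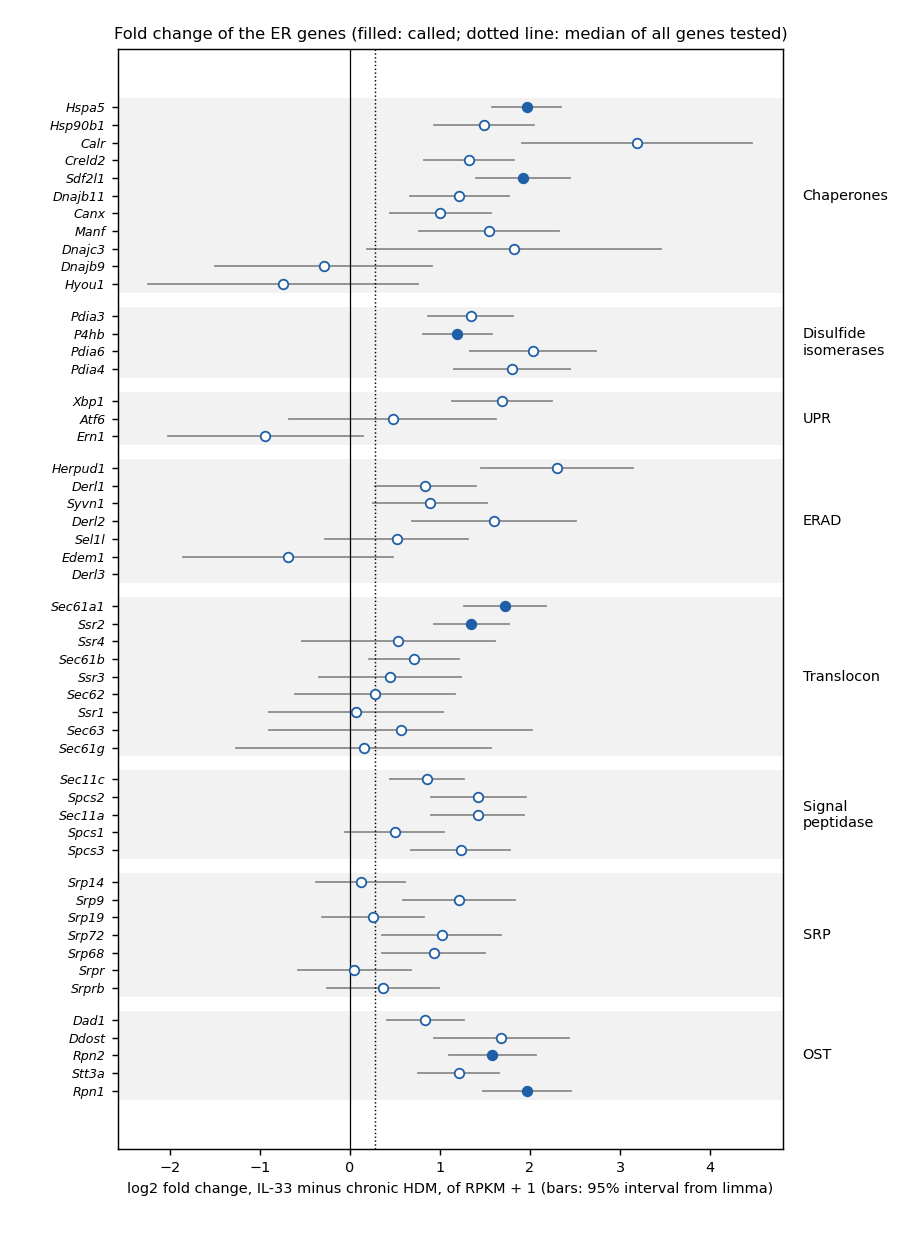
Log2 fold change of each tested member on the log2(RPKM + 1) scale, IL-33 relative to chronic HDM, with its 95% confidence interval from limma, ordered by functional group, with called members filled and the median of all tested genes as a dotted line. Of the 50 points 46 (92%) lie to the right of 0, against 60.9% of all tested genes, and *Calr* lies farthest right, with a wide interval. Under quantile normalization 37 of the 50 were above 0.

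**Figure D3:**
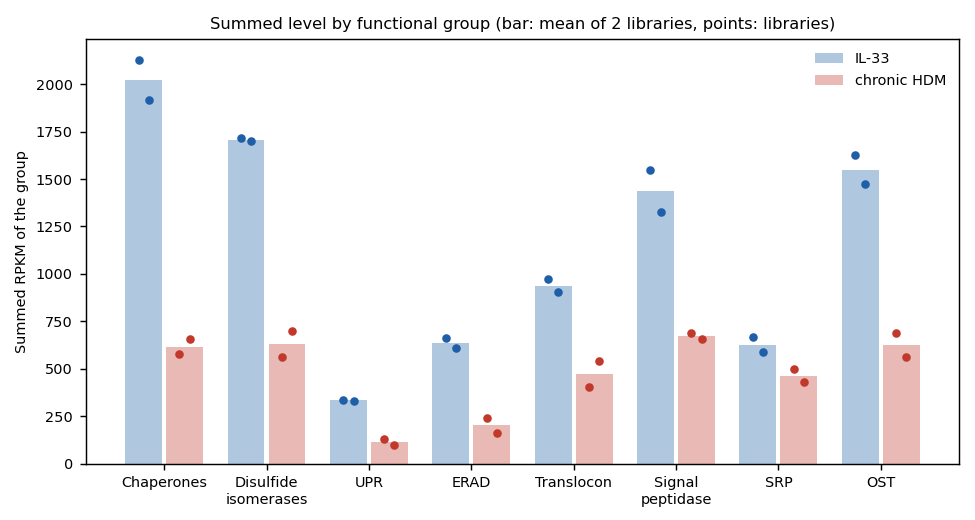
Summed RPKM of each functional group in each of the 4 libraries (points) with the mean of each pair (bars). In every group both IL-33 libraries lie above both HDM libraries, with the smallest gap for SRP. The sums follow the most abundant genes. The UPR sum is mostly *Xbp1*, while *Ern1* of that group was higher in both HDM libraries.

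Of the 8 groups the folding chaperones had the largest ratio of summed levels. Their 11 members added up to 2129 and 1916 RPKM in the IL-33 libraries and 578.5 and 654.9 in the HDM libraries, a ratio of 3.28. By median log2 fold change the chaperones (1.49) came after OST (1.58) and the disulfide isomerases (1.57). Of the 11, 9 were higher in both IL-33 libraries (81.8%, against 41.7% of all genes). The rise passed the test for *Hspa5* and *Sdf2l1*, and 8 of the 11 passed at an adjusted p of 0.05 (72.7%, against 13.8% of all genes). *Hspa5* encodes BiP, the ER Hsp70 that binds unfolded chains, gates the translocon and holds the UPR sensors inactive, and it is the gene most often read as a gauge of the UPR. IL-33 libraries read 865 and 756 RPKM (810.3 ± 77.1, SD, n = 2), and HDM libraries 205 and 208.5 (207 ± 2.39, n = 2). The difference was 3.92-fold in means and 1.96 in log2 (SE 0.15, limma adjusted p = 0.00687), and it was the one call kept under all 3 other scalings. *Hspa5* ranked among the most abundant transcripts in the IL-33 libraries, at place 44 and 51, against 244 and 199 in the HDM libraries.

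*Sdf2l1* encodes an ER protein that keeps BiP clients from aggregating. It read 121 and 117 RPKM after IL-33 and 32 and 29.4 after HDM, with tight pairs on both sides (log2 difference 1.92, SE 0.21, adjusted p = 0.00783). Calreticulin and calnexin, the lectin chaperones that hold monoglucosylated glycoproteins, were both higher in both IL-33 libraries and passed at an adjusted p of 0.05 without a call. *Calr* reached 245 and 232.5 RPKM in the IL-33 pair but only 14.2 and 44.3 in the HDM pair. This was the largest difference of any member, 3.19 in log2, yet the HDM libraries lay so far apart that the SE was 0.51 and the adjusted p 0.0153. *Canx*, its membrane-bound counterpart, read 96.1 and 89.1 against 41.0 and 50.8 RPKM (1.0, adjusted p = 0.0342). The ratio of *Calr* to *Canx* RPKM was 2.55 and 2.61 after IL-33 and 0.347 and 0.873 after HDM, without overlap, and a difference in this ratio was not shown by the exact permutation test (p = 0.333, its smallest).

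GRP94, the ER Hsp90 encoded by *Hsp90b1*, read 342.5 and 292.5 RPKM after IL-33 and 96.1 and 131 after HDM (1.49, adjusted p = 0.013), and 21.6% of its exon bases overlap another gene. The co-chaperone *Creld2* was at 174 and 157 against 70.6 and 60.8 RPKM (1.32, adjusted p = 0.0132). *Manf*, a secreted stress factor that binds BiP, was at 89.6 and 76.5 against 35.6 and 21.6 RPKM (1.54, adjusted p = 0.0262). J-domain proteins deliver clients to BiP. *Dnajb11* read 111 and 120 RPKM after IL-33 and 44.2 and 55 after HDM (1.21, adjusted p = 0.0204). *Dnajc3*, also known as a regulator of PERK, read 66.8 and 57.9 against 7.94 and 34.7 RPKM, a difference of 1.82 that the spread of the HDM pair left at an adjusted p of 0.107. *Dnajb9*, which can return IRE1 to its inactive state, overlapped, at 16.95 and 13.2 against 29.1 and 11.8 RPKM (-0.29, adjusted p = 0.698). The same held for *Hyou1*, the nucleotide exchange factor of BiP, which was low at 1.47 and 3.27 RPKM after IL-33 and 2.76 and 6.83 after HDM (-0.74, adjusted p = 0.418).

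The upstream 250 bases of *Hspa5*, the chaperone gene with the firmest call, are shown because they carry the sequence through which the UPR acts on chaperone promoters. The ER stress response element (ERSE) is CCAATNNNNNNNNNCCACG, in which NF-Y binds the first block and ATF6 or XBP1 the last, and its fixed letters are in capitals. The stretch is from RefSeq on build GRCm38.p6, the same assembly as the mm10 of the files, at chr2:34771840-34772089 on the plus strand, and it has 62.4% GC.
*Hspa5* promoter: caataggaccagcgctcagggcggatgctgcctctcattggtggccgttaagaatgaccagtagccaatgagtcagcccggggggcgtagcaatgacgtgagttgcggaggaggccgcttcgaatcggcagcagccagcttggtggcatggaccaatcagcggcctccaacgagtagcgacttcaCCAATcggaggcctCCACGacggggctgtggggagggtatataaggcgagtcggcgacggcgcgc

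On both strands of windows from 250 bases before to 50 bases after the start, the ERSE was found in 39 of 32851 RefSeq mouse promoters (0.119%). Of the 51 members 41 had a promoter in that table, and 9 of them (22%) held an ERSE, *Hsp90b1* with 2 of them. The member share counts genes and the other counts promoters. The member list also holds UPR genes by choice, so nothing is read from the gap between these shares. These sites are written below with 5 bases on either side, the fixed letters in capitals, each 5′ to 3′ on the strand that reads CCAAT first. They were chosen for display after the matches and values were known.
*Hspa5*, chr2:34772020-34772048 on the plus strand: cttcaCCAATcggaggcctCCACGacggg
*Hsp90b1*, chr10:86705633-86705661 on the minus strand: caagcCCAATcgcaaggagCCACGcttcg
*Hsp90b1*, chr10:86705528-86705556 on the plus strand: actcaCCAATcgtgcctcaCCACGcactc
*Calr*, chr8:84847070-84847098 on the plus strand: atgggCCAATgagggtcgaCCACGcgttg
*Canx*, chr11:50325795-50325823 on the minus strand: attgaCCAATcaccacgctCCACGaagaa
*Creld2*, chr15:88819515-88819543 on the minus strand: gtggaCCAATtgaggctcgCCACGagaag
*Dnajc3*, chr14:118937822-118937850 on the plus strand: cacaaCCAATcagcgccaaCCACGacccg
*Pdia6*, chr12:17266486-17266514 on the plus strand: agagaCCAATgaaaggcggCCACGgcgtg
*Syvn1*, chr19:6046527-6046555 on the plus strand: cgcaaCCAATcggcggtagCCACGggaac
*Derl3*, chr10:75893237-75893265 on the minus strand: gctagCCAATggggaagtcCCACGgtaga

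The exact ERSE match of *Hspa5* lies 65 to 47 bases upstream of the transcript start and that of *Canx* 145 to 127 bases upstream. For *Calr*, *Creld2*, *Derl3* and the site of *Hsp90b1* on the plus strand the element runs against the gene. The capitals are the search pattern itself. All 8 tested members with an ERSE were higher in both IL-33 libraries (41.7% of all genes were), and their median log2 difference was 1.65, with *Hspa5* as the 1 call. In the 32 matched tested members without the element the median was 0.93. No translocon, signal peptidase, SRP or OST member was found with the element, so these medians also differ in functional group. Only 4 tested genes outside the members held the same pattern (*Adcy3*, *Alg12*, *Hnrnpa3* and *Pan2*), with a median of -0.25. The window of *Alg12* overlaps that of *Creld2*, so these genes share 1 element. These are descriptions of letters in a window and show neither binding nor a cause.

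The shorter ERSE-II, ATTGGNCCACG, was found in 12 of the 32851 promoters (0.0365%), and *Dnajb11* and *Herpud1* were the members among them. Their sites are given because both genes lack the longer element.
*Dnajb11*, chr16:22857847-22857867 on the plus strand: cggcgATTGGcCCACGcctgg
*Herpud1*, chr8:94386372-94386392 on the plus strand: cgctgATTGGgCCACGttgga
No member held an exact match to TGACGTGG, the core of the XBP1 element called UPRE, which was in 0.676% of promoters. Variants of these patterns were not sought, so sites that differ by a base are not counted. *Herpud1* was the member with TTGCATCA, the C/EBP-ATF composite site read by ATF4 and CHOP, which was in 0.895% of promoters.

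**Figure D4:**
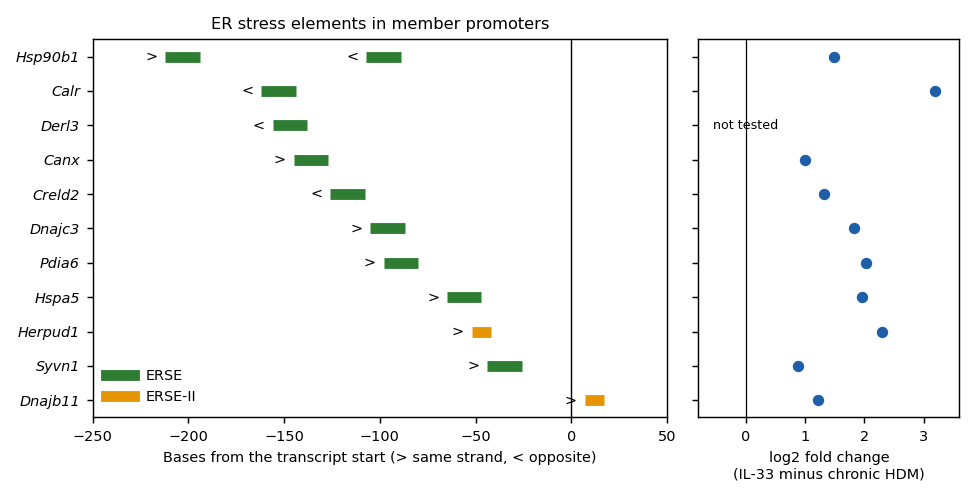
Left, place of each ERSE and ERSE-II in bases from the transcript start (0) within the window from 250 bases before to 50 bases after it, with an arrowhead for the strand relative to the gene. Right, log2 fold change of the same gene (IL-33 relative to chronic HDM, RPKM + 1), where the 10 tested genes all lie above 0 and *Derl3* was not tested. Of all tested genes 60.9% lie above 0.

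The disulfide isomerases form and shuffle the disulfide bonds of secreted proteins, and all 4 were higher in both IL-33 libraries, against 41.7% of all genes. Together they read 1715 and 1699 RPKM after IL-33 and 564 and 700 after HDM, a ratio of 2.70. All 4 passed at an adjusted p of 0.05, against 13.8% of all genes. *P4hb*, the founding isomerase PDI, was at 458 and 454 RPKM after IL-33 and 207 and 191 after HDM (456 ± 2.91 against 199 ± 10.9, SD, n = 2 each). It rose by 1.19 in log2 (SE 0.15, adjusted p = 0.009996) and was the call nearest to the threshold. *Pdia3*, the partner of calnexin and calreticulin on glycoproteins, was the most abundant of the 4, at 766 and 780.4 against 262 and 355 RPKM (1.34, adjusted p = 0.0121). *Pdia6* read 357 and 325 against 63.7 and 107 RPKM (2.03, adjusted p = 0.0116), and *Pdia4* 134 and 140 against 31.7 and 47.0 RPKM (1.80, adjusted p = 0.0126). Their differences were larger than that of *P4hb*, and the HDM libraries stood farther apart.

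Of the UPR sensors and *Xbp1*, only *Xbp1* passed at an adjusted p of 0.05. *Xbp1*, whose spliced mRNA encodes the factor that drives chaperone, ERAD and translocon genes, was at 326 and 322 RPKM after IL-33 and 118 and 83.9 after HDM (1.69, SE 0.22, adjusted p = 0.0108). These values sum all exons, so the spliced and unspliced forms cannot be told apart. *Ern1*, the gene of the sensor IRE1 itself, was low and lay the other way, at 3.75 and 4.42 RPKM after IL-33 and 6.84 and 11.1 after HDM (-0.94, adjusted p = 0.179). *Atf6* read 5.21 and 5.81 against 2.75 and 4.86 RPKM (0.47, adjusted p = 0.499). None of the 3 passed the main threshold, while 1 had an unadjusted p under 0.05. Limma-voom called 0, as it did over all genes.

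ERAD carries misfolded proteins back to the cytosol for the proteasome. Of its 6 tested genes 5 were higher in both IL-33 libraries (83.3%, against 41.7% of all genes), without any call. At an unadjusted p under 0.05 there were 4, against 25.5% of all genes. Limma-voom called 0, as it did over all genes. The 7 genes summed to 663 and 608 RPKM in the IL-33 pair and 241 and 162 in the HDM pair, mostly through *Herpud1*, which recruits ubiquitin ligase complexes. *Herpud1* read 461 and 422 RPKM after IL-33 and 125 and 63.1 after HDM (2.30, SE 0.34, adjusted p = 0.0127), the second largest difference among the members. The ubiquitin ligase HRD1 (*Syvn1*) was at 52.0 and 47.3 against 29.1 and 23.8 RPKM (0.89, adjusted p = 0.0624), and its partner *Sel1l* at 16.1 and 20.53 against 13.1 and 11.7 (0.52, adjusted p = 0.289). *Edem1*, which trims mannose to mark glycoproteins for disposal, lay the other way with 4.01 and 6.56 against 11.8 and 6.72 RPKM (-0.69, adjusted p = 0.337).

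Of the Derlins, which take part in the export channel, *Derl1* read 90.3 and 73.7 RPKM after IL-33 and 45.6 and 45 after HDM (0.84, adjusted p = 0.0542). *Derl2* read 39.2 and 37.8 against 16.3 and 8.87 RPKM (1.60, adjusted p = 0.0359). *Derl2* made up 30.2 and 33.9% of the summed Derlin RPKM after IL-33 and 26.4 and 15.6% after HDM. *Derl3*, a strong XBP1 target in plasma cells, rested on 8 and 3 reads after IL-33 and on 0 and 72 after HDM, so its share of 5.20% in HDM replicate 2 has no match in replicate 1.

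In the translocon the channel pore and 1 subunit of the translocon-associated protein (TRAP) complex rose, while most partners did not separate. *Sec61a1*, the pore-forming subunit, was at 281 and 272 RPKM after IL-33 and at 76.7 and 90.0 after HDM (277 ± 6.47 against 83.4 ± 9.41). The difference was 1.72 in log2 (SE 0.18, adjusted p = 0.00733), and 17.3% of its exon bases overlap a gene on the other strand. Its paralogue *Sec61a2* contributed little, since *Sec61a1* made up 99.2 and 99.0% of their summed RPKM after IL-33 and 80.9 and 94.6% after HDM. *Sec61b*, the beta subunit, read 150 and 125 against 79.7 and 87.3 RPKM (0.71, adjusted p = 0.0617). The gamma subunit *Sec61g* was listed at only 3.85 and 2.42 against 1.61 and 4.15 RPKM. Of the 51-base stretches of these transcripts 40.3% (*Sec61b*) and 44.3% (*Sec61g*) also occur in other genes or pseudogenes, which makes both levels uncertain where reads must align uniquely.

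The TRAP subunit *Ssr2* had close replicates on both sides, at 259 and 253.5 RPKM after IL-33 and 100.4 and 99.9 after HDM (1.35, SE 0.17, adjusted p = 0.00992). Other TRAP subunits overlapped between the groups. *Ssr4* was at 198 and 172 RPKM after IL-33 but at 80.6 and 199 after HDM (0.54, adjusted p = 0.412), so HDM replicate 2 alone reached the IL-33 level. *Ssr3* read 43.6 and 33.9 against 34.5 and 22.7 RPKM and *Ssr1* 9.30 and 11.1 against 12.0 and 7.68. *Sec62* and *Sec63*, which serve short or weakly hydrophobic precursors, overlapped as well, *Sec62* at 26.4 and 27.7 against 16.5 and 29.5 RPKM. Only 3 of the 9 genes were higher in both IL-33 libraries (33.3%, against 41.7% of all tested genes), and the group median of 0.54 fell to 0.05 under quantile normalization.

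Signal peptidase cuts the signal peptide off the entering chain. Both IL-33 libraries lay above both HDM libraries for all 5 subunit genes, against 41.7% of all genes. No call was made at the main threshold. At an adjusted p of 0.05 there were 3 (13.8% of all genes) and at an unadjusted p under 0.05 there were 4 (25.5% of all genes). Limma-voom called 0, as it did over all genes. *Spcs2* read 404 and 368 RPKM after IL-33 and 168 and 121 after HDM (1.43, adjusted p = 0.0131), and *Spcs3* 97.7 and 90.9 against 43.1 and 36.4 RPKM (1.23, adjusted p = 0.0201). *Spcs1* showed the smallest difference of the 5, at 152 and 117 against 100.4 and 88.3 RPKM (0.50, adjusted p = 0.167), with 19.5% of its exon bases shared with *Glt8d1*.

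The catalytic subunits *Sec11a* and *Sec11c* are alternative forms of the same protease. *Sec11a* was at 358 and 303 RPKM after IL-33 and 108 and 139 after HDM (1.42, adjusted p = 0.0127). *Sec11c* was at 538 and 446 against 268 and 271 RPKM (0.86, adjusted p = 0.0232). *Sec11c* was thus the more abundant form per length in all 4 libraries, with 60.1 and 59.5% of the summed RPKM after IL-33 and 71.3 and 66.1% after HDM. The shares did not overlap, and the exact permutation test again could not go below p = 0.333. Counted in reads without division by length the shares averaged 50.6% and 60.2%.

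SRP and its receptor had the smallest ratio of summed levels among the groups. Their 7 genes summed to 665 and 590 RPKM in the IL-33 pair and 499 and 430 in the HDM pair, a ratio of 1.35, and the median log2 difference of 0.37 was close to the 0.28 of all tested genes and turned to -0.01 under quantile normalization. None of the 7 was called, against 3 at an unadjusted p under 0.05 (25.5% of all genes). Limma-voom called 0, as it did over all genes. *Srp14*, which with SRP9 pauses translation, was the most abundant, at 250 and 205 RPKM after IL-33 and 229 and 189 after HDM (0.12, 95% confidence interval -0.37 to 0.61). Its dimer partner *Srp9* read 111 and 90.8 against 49.0 and 37.4 RPKM (1.21, adjusted p = 0.0276). *Srp68* and *Srp72*, which form the other SRP heterodimer, stood at 64.0 and 60.5 against 30.4 and 34.2 RPKM (0.93, adjusted p = 0.0437) and at 67.1 and 65.8 against 27.2 and 38.4 RPKM (1.017, adjusted p = 0.0502). *Srp19* overlapped at 98.3 and 88.1 against 89.0 and 68.2 RPKM. The docking receptor *Srpr* was level at 40.5 and 42.1 against 45.1 and 35.4 RPKM (0.05, 95% confidence interval -0.58 to 0.67), and its anchor *Srprb* read 34.2 and 37.9 against 28.8 and 26.6. For *Srp9*, *Srpr* and *Srprb* 15.4, 19.5 and 27.8% of the 51-base stretches also occur in other transcripts.

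OST, which transfers the preformed glycan to asparagine, was the group with the largest share of calls, 2 of 5 (40%, against 2.8% of all genes). All 5 member genes were higher in both IL-33 libraries, against 41.7% of all genes. Further OST subunits outside the members are given below, and some of them lay the other way. *Rpn1*, the ribophorin that passes substrates to the catalytic subunit, was at 163 and 157 RPKM after IL-33 and 39.1 and 41.3 after HDM (160.3 ± 4.29 against 40.2 ± 1.56). The rise was 3.99-fold in means and 1.97 in log2 (SE 0.20, adjusted p = 0.007). *Rpn2*, ribophorin II, was at 346 and 308 against 121 and 97.1 RPKM (1.58, SE 0.19, adjusted p = 0.00968), with 5.14% of its exon bases shared with *Mroh8*. Neither ribophorin overlapped between the groups. The scaffold *Ddost* read 394 and 383 RPKM after IL-33 and 161 and 89.6 after HDM (1.68, adjusted p = 0.0195). *Dad1*, named for its defence against cell death, was the most abundant OST member, at 521 and 436 against 284 and 250.4 RPKM (0.83, adjusted p = 0.0276). *Stt3a*, the catalytic subunit that works on chains still entering the ER, read 202 and 189 against 82.0 and 86.0 RPKM (1.21, adjusted p = 0.0129). It made up 93.2 and 91.7% of *Stt3a* plus *Stt3b* RPKM after IL-33 and 95.3 and 76.1% after HDM, so the groups overlapped in this share.

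Further genes of the same pathways were counted in 7 lists. Of 108 tested genes in them, 5 (4.63%) were called higher after IL-33, against 2.8% of all genes, and none higher after HDM (6 at an unadjusted p under 0.05, against 11.2% of all genes). This count was not tested against that of the members. In the PERK and stress list 2 of 13 rose. *Nupr1*, a stress-induced chromatin protein, was at 355 and 266 RPKM after IL-33 and 29.3 and 39.6 after HDM (3.14, adjusted p = 0.00687). *Ero1l*, the oxidase that recharges PDI, was at 312 and 261 against 97.4 and 73.6 RPKM (1.74, adjusted p = 0.009996). In the list of further OST subunits and lipid-linked sugar enzymes 2 of 16 rose, both glucosyltransferases of glycan assembly. *Alg8* was at 28.1 and 26.9 RPKM after IL-33 and at 0.026 and 0.931 after HDM (4.34, adjusted p = 0.00801), and *Alg5* read 167 and 166.5 against 54.7 and 50 RPKM (1.66, adjusted p = 0.00857). Both IL-33 libraries were higher for 8 of the 16 genes of this list, against 41.7% of all tested genes. Both HDM libraries were higher for 4 of the 16, against 23.5%, and nothing is read from these counts. The OST subunit *Ost4* was higher after HDM, at 90.5 and 69.4 against 202 and 167 RPKM (-1.20, adjusted p = 0.0223). *Tusc3* (-0.47, adjusted p = 0.169) and *Tmem258* (-0.58, adjusted p = 0.165), also OST subunits, were higher in both HDM libraries too. The 1 call among 21 genes of COPII vesicles and cargo receptors was *Lman2*, a lectin that carries glycoproteins out of the ER, at 160 and 163 against 38.4 and 50.8 RPKM (1.85, adjusted p = 0.00968).

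The other 4 lists held no call. At an unadjusted p under 0.05, 25.5% of all tested genes were higher after IL-33 and 11.2% higher after HDM, and these small lists are given beside those shares with nothing read from them. For folding enzymes and glycan trimming 5 of 13 were higher after IL-33 at that level, and the abundant proline isomerase *Ppib* was nearly level at 252 and 230.2 RPKM after IL-33 and 222 and 210.1 after HDM (0.16). For translocation and insertion 5 of 15 were higher after IL-33 and *Sec61a2* higher after HDM, and the insertase subunit *Emc4* read 192.5 and 168 against 132 and 95 RPKM (0.68). Among further ERAD genes 8 of 18 were higher after IL-33 and *Rnf5* higher after HDM, with the selenoprotein *Selenok* at 266 and 229 against 140.2 and 141 RPKM (0.81). For COPI coats and KDEL receptors, which return ER residents, 6 of 12 were higher after IL-33 and *Kdelr1* higher after HDM, with *Cope* at 362 and 370 against 216 and 195 RPKM (0.83). By limma-voom these lists held no call either, as no gene of the table was called by it.

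The secreted cytokines of ILC2s are the cargo of this machinery, and 2 of 9 tested genes were called higher after IL-33, against 2.8% of all genes. *Il5* was at 738 and 626.5 RPKM after IL-33 and 151 and 145 after HDM (2.196, SE 0.16, adjusted p = 0.00665), and *Il9* had 164 and 103 reads after IL-33 and none after HDM (adjusted p = 0.00723, no fold given). *Il13* read 76.6 and 86.6 against 12.4 and 21.9 RPKM (2.23, adjusted p = 0.0132) without a call. *Csf2* and *Areg* lay the other way, at 0.743 and 1.08 against 9.17 and 7.73 RPKM (-2.31, adjusted p = 0.0255) and at 11.5 and 7.69 against 24.5 and 28.8 RPKM (-1.40, adjusted p = 0.042). ER genes and cytokines come from the same 4 libraries, so their levels are set side by side without a correlation.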

How the data were processed

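Smart-seq2 libraries of sorted BAL fluid ILC2s were sequenced as single reads. The authors aligned the reads to mm10 with HISAT2 2.0.4 and deposited RPKM per gene over condensed exons from HOMER, with uniquely aligned reads per the file headers and without strand. Values were whole reads, within 0.1 read, for 99.79 to 99.97% of entries, and these reads served limma-voom as an alternative.

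Genes were kept where the 4 libraries averaged 2 RPKM or more (9523 genes), and log2(RPKM + 1) was fitted with limma 3.58.1 in R 4.3.3. The test compared 2 with 2 libraries, two-sided, with trended empirical Bayes variances and Benjamini-Hochberg adjustment over all kept genes. Fold changes understate low genes. Calls needed an adjusted p under 0.01 and an absolute log2 fold change over 1, after the study's thresholds. P-values rest on the spread between these libraries, moderated across genes of similar level, and not on each gene's own spread alone. RPKM after IL-33 or HDM is given as replicate 1 and 2. The script was tested on simulated data.

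Members, lists and tests were chosen with earlier results of these data known. Any member could be named. Of other lists, up to 4 called genes were named by size or, without a call, up to 2 by level, and *Il13*, *Csf2*, *Areg* and genes higher after HDM were added after their values were seen. Sequences and starts are from RefSeq (GRCm38.p6), with motifs sought by exact match. Alternatives were other pseudocounts (0.1 and 2), minimums (none and 5), scalings, variance models, an adjusted p of 0.05, a replicate block and leaving out each library. No proteins were compared.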

Additional observations from a re-analysis of the deposited data

How the results depend on the processing

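Members called higher after IL-33 numbered 7 in the main analysis and 7 with robust variances. They numbered 0 with a pseudocount of 0.1, no minimum, no intensity trend or limma-voom (31 or 32 members then had an unadjusted p under 0.05), 11 with a pseudocount of 2, 18 with a minimum of 5 RPKM, 25 at an adjusted p of 0.05, and 1 (*Hspa5*) under quantile normalization, median-of-ratios scaling or scaling without 45S ribosomal RNA. Leaving out 1 library at a time gave 0 to 28, where the lone library is assumed to vary like the other pair. All genes called higher after IL-33 or after HDM numbered 267 and 51 in the main analysis, 48 and 40 under quantile normalization, 394 and 76 with a pseudocount of 2 and 502 and 107 with a minimum of 5 RPKM. With the replicate block the members called numbered 24, and all genes 987 and 267. The numbers mark no shared animal, and same-numbered libraries did not deviate together (r = -0.04 across genes). The median log2 fold change of the members, 1.11, became 1.017 without a minimum, 1.21 with 5 RPKM, 0.62 with quantile normalization, 0.85 with median-of-ratios scaling, 0.88 without 45S ribosomal RNA and 1.003 with limma-voom, and 0.99 to 1.15 with 1 library left out. The cause of these moves was not tested. No member was called higher after HDM in any of these settings, and the 7 called members kept their direction in all of them. With 2 libraries a group, exact permutation cannot go below p = 0.333.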

Other observations

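Several members were listed at levels far from those of their partners in the same complex. *Hyou1*, which works with BiP, was at 1.47 to 6.83 RPKM where *Hspa5* was at 205 to 865, and none of the 51-base stretches of its transcript occurs in transcripts of other genes. *Sec61g* was at 1.61 to 4.15 RPKM where *Sec61b*, a subunit of the same channel, was at 79.7 to 150. For these the share of such stretches also present in other genes or pseudogenes was 44.3% and 40.3%, and the tables hold uniquely aligned reads, so levels of both genes are uncertain. Of the 51 members 9 had over 10% of their stretches in other transcripts, and among the called members this was so for *Sec61a1* (14.5%), through the overlapping gene *Gm44170*. *Srprb*, *Srpr*, *Spcs1*, *Srp9*, *Hsp90b1* and *Sec62* had 27.8, 19.5, 17.5, 15.4, 13.6 and 11.7%.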
